A study of Mus musculus with 12 samples.

Results

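Gene expression was compared in peritoneal macrophages of wild-type (WT) and Pim1-/- mice to ask whether oxidized low-density lipoprotein (oxLDL) moved each gene by the same amount in both genotypes. The response of a gene in Pim1-/- cells was its log2(TPM + 1) level in oxLDL minus that in PBS, and the response in WT cells was subtracted from it. A positive difference therefore means that the response ran further up, or less far down, in Pim1-/- cells. TPM is a level per transcript length, scaled to the same total in every library. Of 24279 genes in the table, 12594 reached 1 TPM in 3 or more libraries and were tested. Only 1 of them, Mir7678, passed the test of the difference (0.00794% of tested genes with a positive difference, limma with Benjamini-Hochberg adjusted p under 0.05). It reached 1 TPM in the Pim1-/- oxLDL libraries alone, so the filter kept it through the group where it was high. None passed with a negative difference (0% of tested genes).

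The 4 groups held 3 libraries each. They were WT cells in PBS, WT cells in 20 µg/mL oxLDL for 8 h, Pim1-/- cells in PBS and Pim1-/- cells in oxLDL at the same dose and time. All cells came from the peritoneal cavity and were kept in the same serum-containing medium. The labels give neither age nor sex, nor the extent of the Pim1 deletion, nor if each library had its own animal or dish, so p-values measure the spread between these samples, which may be technical.

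Pim1 belongs to a family of serine/threonine kinases that are active as soon as they are made, so that their activity follows the amount of mRNA and protein. Cytokine receptors switch the gene on through JAK kinases and STAT transcription factors, and known substrates include the death-promoting protein Bad and inhibitors of the cell cycle. Macrophages bind oxLDL through scavenger receptors such as Cd36, Msr1 and Marco, and the particle is used to model the lipid loading and inflammation of the artery wall.

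The difference of a gene is its genotype gap at the end, in oxLDL, minus its gap at the start, in PBS. A gene can hence differ in response because the genotypes already differed in PBS and met in oxLDL, or because they were alike in PBS and parted in oxLDL. An altered start was recorded where the gap in PBS was at least 2 times the gap in oxLDL, an altered end where the reverse held, and "both" for the rest. The gap at the start and the gap at the end use no library in common, and across the tested genes they ran together (Spearman 0.634, Pearson 0.650 over 12594 genes, which are not independent replicates).

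Mir7678 is shown first because it was the only gene called. It is listed as a microRNA on chromosome 2 (164354313 to 164354383, minus strand, GRCm38). Of the 71 bases of its hairpin, 70 lie in the last intron of Slpi, between exons 3 and 4, and 1 lies in exon 4. The lines below give the RefSeq sequences (GRCm38.p6) 5′ to 3′, with the seed (bases 2 to 8) of each mature arm in capitals, and then the hairpin with both arms in capitals.
mmu-miR-7678-5p: uUACAAGGgcuggauaggaau
mmu-miR-7678-3p: uUUCCUUAcuuucucuuguagc
Mir7678 hairpin: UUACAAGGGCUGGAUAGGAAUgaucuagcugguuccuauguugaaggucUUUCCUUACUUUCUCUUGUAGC

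Mir7678 was listed at 0 TPM in 9 libraries, those of WT cells and of Pim1-/- cells in PBS. The Pim1-/- oxLDL libraries held 10.4, 9.25 and 13.9 TPM. No library of another group reached the level of these 3 libraries. It met the filter of 1 TPM in 3 libraries through these alone, the group where it was high. The values of 0 add no spread, and its SE lay below the median of 0.669 over all tested genes. The difference of responses was 3.59 (SE 0.450, limma adjusted p = 0.0153), all of it from the end, where the genotype gap was 3.59 (limma adjusted p = 0.000206). It was the only gene called at the end among those higher in Pim1-/- cells (0.00794% of tested genes), and no gene was called lower there (0%). The call was close to the threshold: it was lost at a pseudocount of 0.1, with replicate number as a block, and in 9 of the 12 fits that left out 1 library (limma adjusted p up to 0.108), while the size of the difference stayed between 3.43 and 3.70 in those 12.

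Slpi, the host gene, encodes a secreted inhibitor of leukocyte proteases and was looked up after Mir7678 had been seen. It lies on the same strand, and a value per gene cannot tell reads of the hairpin from reads of unspliced Slpi RNA. Its levels were 5.02, 5.02 and 6.55 TPM in WT PBS, 107, 280.0 and 22.02 TPM in WT oxLDL, 66.8, 12.8 and 56.9 TPM in Pim1-/- PBS and 297, 316 and 358 TPM in Pim1-/- oxLDL. Slpi rose with oxLDL in WT cells by 3.77 (limma adjusted p = 0.00218) and in Pim1-/- cells by 3.10 (limma adjusted p = 0.0144), and each Pim1-/- library lay above each WT library of the same treatment. The difference of its responses was -0.68 (SE 1.05), and 0.15 without WT oxLDL 2.

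Pim1 itself, on chromosome 17 (29490753 to 29496112), was looked at as a check of the labels. It stood at 93.1, 68.5 and 77.6 TPM in WT PBS, 365, 56.0 and 114 TPM in WT oxLDL, 13.9, 10.2 and 30.6 TPM in Pim1-/- PBS and 47.8, 13.6 and 12.3 TPM in Pim1-/- oxLDL. Every Pim1-/- library lay below every WT library of its treatment, and the exact two-sided permutation p was 0.1 for either treatment, the lowest value possible with groups of 3. In oxLDL the closest values were 56.0 TPM in WT oxLDL 2 and 47.8 TPM in Pim1-/- oxLDL 1. These libraries also resembled each other over the tested genes (Spearman 0.977), so Pim1 cannot settle their labels. The difference of the Pim1 responses was -0.46 with a 95% interval of -2.44 to 1.51, and 0.26 without WT oxLDL 1, where Pim1 was highest. Its relatives Pim2 and Pim3 had differences of 0.62 and -1.20. The 334 tested genes within 10 Mb of Pim1 held 10 genes with a large difference as defined below (2.99%, against 3.03% of all tested genes), and none was called for the difference.

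Some libraries did not sit with their group. WT PBS 3 reached a Spearman correlation of at most 0.837 with the others, and had 12867 genes listed at 0, and lymphocyte transcripts such as Nkg7 at 333 TPM. Markers of T and NK cells summed to 5.2 to 492 TPM in WT PBS, 12.8 to 31.0 in WT oxLDL, 6.91 to 8.45 in Pim1-/- PBS and 19.9 to 28.5 in Pim1-/- oxLDL. The 3 tested members of that list had a median difference of 1.42, and of -0.19 without WT PBS 3. WT oxLDL 2 was closest to a library of the other genotype (0.977 with Pim1-/- oxLDL 1, against 0.884 to 0.899 within its group). Pim1-/- PBS 2 was also closest to the other genotype (0.916 with WT PBS 1, against at most 0.906 in its group). Macrophage markers were high in all 12 libraries, with sums of 12233 to 24493 TPM. In bulk samples, fewer cells of a type and less RNA per cell cannot be told apart.

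The median of all tested genes was 0.23 for the difference, -0.41 for the start gap, -0.16 for the end gap, -0.70 for the WT response and -0.50 for the Pim1-/- response. When each library was scaled by its median ratio to the mean library (median scaling below) these medians were -0.09, 0.04, -0.05, 0.07 and -0.05. Differences are given as deposited, with the median-scaled value where it changes the reading.

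**Figure D1:**
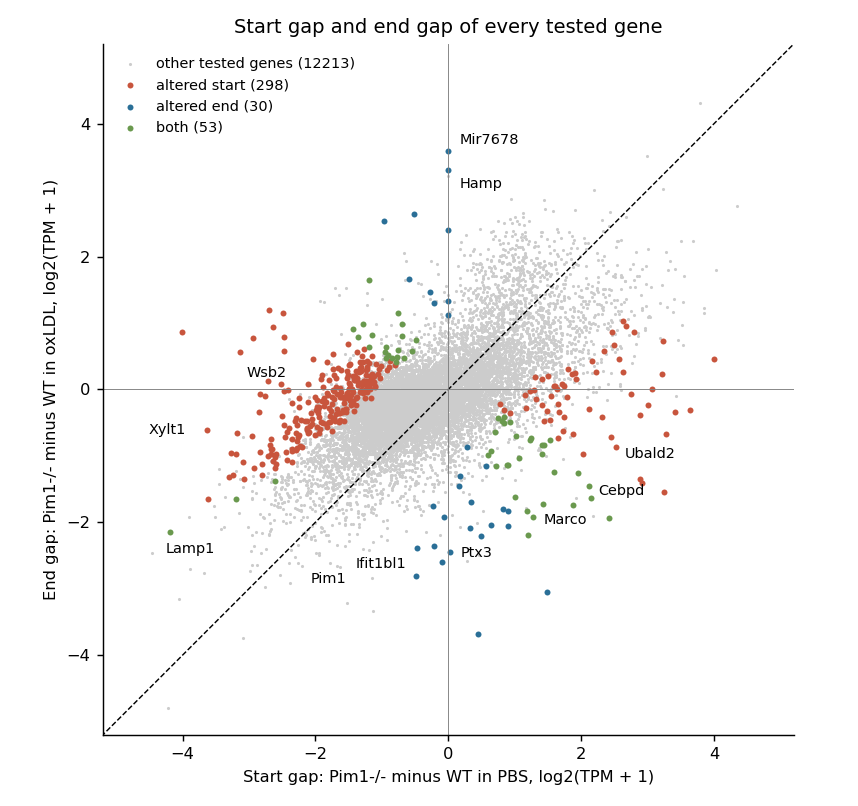
Genotype gap in PBS (x axis) against genotype gap in oxLDL (y axis), both as Pim1-/- minus WT in log2(TPM + 1), for each of the 12594 tested genes. The dashed line marks equal gaps, which is a difference of 0. Most of the 381 coloured genes lie near the horizontal axis, where the gap was in PBS, and Mir7678 and Hamp lie on the vertical axis, where it was in oxLDL.

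A large difference was set as an absolute value of at least 1 with an unadjusted limma p under 0.05. It was met by 381 genes (3.03% of tested genes), 271 with a positive difference (2.15%) and 110 with a negative one (0.873%). A further 1582 genes had a difference of that size without reaching the p. No gene with such a p had a smaller difference, so the bound on size removed no gene. With no difference in any gene, a share of 0.05 of the tested genes would fall under this p by itself. Since the 381 genes were picked by the difference, the counts that follow describe them and are no test. The spread between libraries limits what could be seen. The 95% interval of the difference lay within -1 to 1 for 0 genes, within -2 to 2 for 6699 genes (53.2%) and within -3 to 3 for 11287 genes (89.6%).

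An altered start accounted for 298 of the 381 genes (78.2%), an altered end for 30 and both for 53. Of the 298, 238 had a positive difference and 60 a negative one. This balance of directions turned with scaling. After median scaling 102 genes (0.81%) had a large positive and 259 (2.06%) a large negative difference, and altered starts numbered 67 and 153. The altered start was the most frequent origin in both directions in these 2 scalings, with 220 of 361 genes after median scaling (2.87% of tested genes were large). In the 2 scalings 197 genes were large with the same sign, 99 positive and 98 negative, and 158 of them also had the same origin.

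The share of altered starts depended on single libraries. It was 78.2% with all libraries, 45.7% without WT oxLDL 2, 52.2% without Pim1-/- oxLDL 1 and 86.9% without WT PBS 3. Without WT oxLDL 2 the genes divided into 163 altered starts, 137 altered ends and 57 of both, and without WT PBS 3 into 523, 23 and 56. Leaving out Pim1-/- oxLDL 1, the library that WT oxLDL 2 resembles, gave 167, 92 and 61. Among genes with a negative difference the order then turned, with 37 altered starts against 45 altered ends without WT oxLDL 2 and 44 against 84 without Pim1-/- oxLDL 1. Without both WT PBS 3 and WT oxLDL 2 it was 36 against 45. Among positive differences altered starts outnumbered altered ends in each of these settings. Median scaling without both WT libraries, which was added once the values were known, gave 194, 171 and 131. Leaving out a single library moved altered starts over a range of 162 to 714, the lowest without Pim1-/- oxLDL 2 and the highest without Pim1-/- PBS 2.

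**Figure D2:**
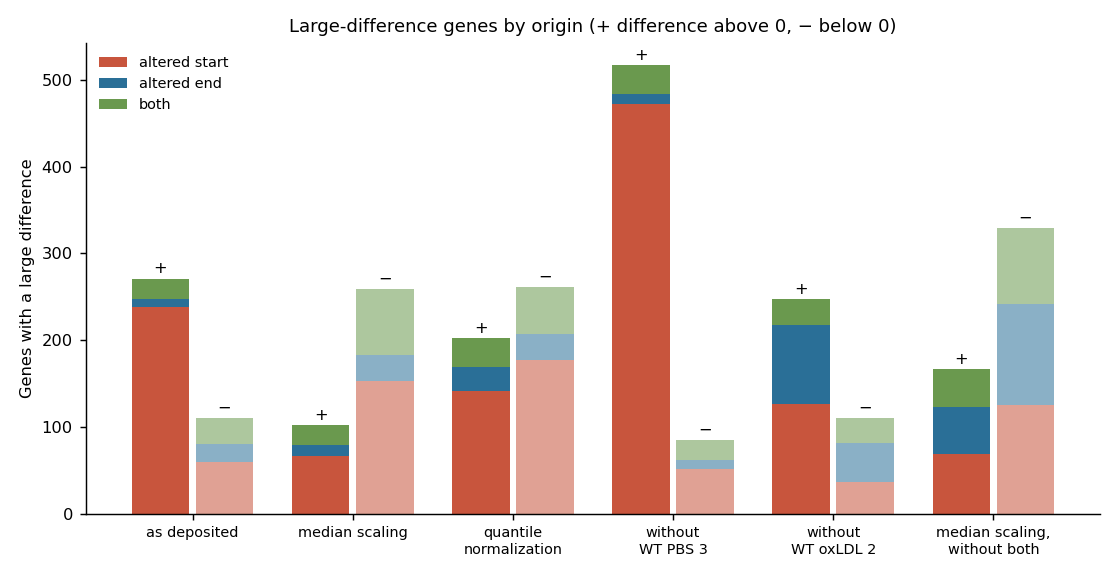
Number of genes with a large difference (y axis), by origin, for 6 settings (x axis). In each pair the full-coloured bar holds positive and the pale bar negative differences. Positive differences outnumber negative ones as deposited (271 against 110) and are outnumbered after median scaling (102 against 259).

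The 238 genes with a positive difference and an altered start were lower in Pim1-/- than in WT cells in PBS, as the definition requires, and 140 of them passed the test there (511 of all tested genes, 4.06%, were called lower at the start). In WT cells 216 of the 238 fell with oxLDL (27% of all tested genes fell), and in Pim1-/- cells 33 fell (7.8% of all). The choice of the 238 used the same WT PBS libraries, so it favoured a call at the start and a fall in WT cells. The median level of the 238 went from 17.01 TPM in PBS to 2.03 TPM in oxLDL in WT cells, and from 3.65 to 1.73 TPM in Pim1-/- cells. The oxLDL levels lay near the pseudocount of 1, where log2(TPM + 1) compresses a gap between genotypes. Median transcript length was 3448 bases against 3219 for all tested genes. Calls at the start depended on scaling. Of the 588 genes called there as deposited (4.67%), where the median start gap was -0.41, 7 were called after median scaling (0.0556%), 3 of them higher (0.0238%) and 4 lower (0.0318%) in Pim1-/- cells. Xylt1 was called in both. The ribosomal RNA gene Rn45s took 3.01 to 9.11% of TPM in WT PBS and 14.9 to 28.9% in Pim1-/- PBS, without overlap, and Mir6236 took 2.55 to 16.5% and 0.0553 to 2.41%. With both left out of the table before rescaling, 170 genes were called at the start. Without Pim1-/- PBS 2 the count was 1669. The other start calls given below hold for the values as deposited only.

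Xylt1, on chromosome 7 (117380979 to 117673580), had the second smallest unadjusted p and shows this pattern most plainly. It encodes a xylosyltransferase that starts the sugar chains of proteoglycans. Its levels were 92.2, 90.6 and 72.8 TPM in WT PBS, 2.94, 2.05 and 0.974 TPM in WT oxLDL, 6.23, 6.76 and 4.81 TPM in Pim1-/- PBS and 1.58, 0.788 and 0.423 TPM in Pim1-/- oxLDL. The PBS levels of the genotypes lay far apart, while the oxLDL levels overlapped. Xylt1 fell by 4.90 in WT cells (limma adjusted p = 1.39e-06) and by 1.88 in Pim1-/- cells (limma adjusted p = 0.00644). The difference was 3.02 (SE 0.559, limma adjusted p = 0.490), with a start gap of -3.64 (limma adjusted p = 0.00275) and an end gap of -0.62. After median scaling the difference was 2.47 and the start gap -3.13 (limma adjusted p = 0.0225). It passed the adjusted test of the difference at a pseudocount of 5 (adjusted p = 0.00922, limma).

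Wsb2, on chromosome 5 (117357304 to 117378601), encodes an adaptor of a ubiquitin ligase and stayed well above the pseudocount. It held 482, 508 and 395 TPM in WT PBS, 69.5, 61.4 and 46.1 TPM in WT oxLDL, 139, 107 and 79.2 TPM in Pim1-/- PBS and 59.7, 66.9 and 57.8 TPM in Pim1-/- oxLDL. The genotypes were apart in PBS and overlapped in oxLDL. Wsb2 fell by 2.96 in WT cells (limma adjusted p = 4.14e-05) and differed by -0.77 in Pim1-/- cells (limma adjusted p = 0.162). The difference was 2.18 (SE 0.490, limma adjusted p = 0.986), 1.82 after median scaling.

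Pdgfb, which encodes a growth factor for smooth muscle cells and pericytes, stood at 22.6, 33.2 and 20.2 TPM in WT PBS and at 2.64, 3.88 and 5.27 TPM in Pim1-/- PBS. In oxLDL the levels were 8.05, 5.97 and 2.00 TPM in WT and 6.73, 4.45 and 3.44 TPM in Pim1-/- cells, and the genotypes overlapped. It fell by 2.17 in WT cells (limma adjusted p = 0.00362), and its start gap of -2.42 passed the test (limma adjusted p = 0.0177). Pdcd4, a brake on translation initiation, was at 23.9, 23.0 and 29.1 TPM in WT PBS and at 4.48, 4.76 and 2.13 TPM in Pim1-/- PBS, and fell in both genotypes, by 3.38 and 1.27 (limma adjusted p = 2.58e-05 and 0.0404). After median scaling the fall of Pdgfb in WT cells (limma adjusted p = 0.0798) and that of Pdcd4 in Pim1-/- cells (0.101) no longer passed.

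The rule for naming genes took the 12 largest positive differences among genes with a mean of at least 5 TPM and genotypes that did not overlap in one treatment. It took the 12 largest negative differences in the same way. Size and non-overlap were conditions of being named, so the counts that follow describe the choice. Of the 12 positive differences, 11 had an altered start. Of the 11, 10 passed the test at the start, against 4.06% of all tested genes called lower there. Beside Xylt1, Wsb2, Pdgfb and Pdcd4 the 11 were Phospho1 (difference 2.60), a phosphatase of phosphocholine, Zdhhc14 (2.51), a palmitoyltransferase, Abcd2 (2.13), a peroxisomal importer of fatty acids, Echdc1 (2.28), Rassf3 (2.32), Rac1 (2.25), a small GTPase of the actin cytoskeleton and the NADPH oxidase, and Mlycd (2.23), which breaks down malonyl-CoA. Rassf3, Rac1 and Mlycd no longer had a large difference after median scaling. In each of these 3 genes WT oxLDL 1 stood above the other WT oxLDL libraries, as for Rac1 at 163 against 31.2 and 18.7 TPM. The lysosomal membrane protein Lamp1 had the same feature (1329, 194 and 339 TPM in WT oxLDL), with 3622, 3642 and 3101 TPM in WT PBS and 289, 228 and 98.8 TPM in Pim1-/- PBS. Its start gap of -4.20 passed the test (limma adjusted p = 0.0115), and its difference of 2.05 was not large after median scaling.

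Bcl2, the survival protein, and the zinc finger transcription factor Egr2 followed the same order. Bcl2 was at 11.6, 12.3 and 19.3 TPM in WT PBS, 0.819, 0.848 and 0.428 TPM in WT oxLDL, 3.78, 4.14 and 3.11 TPM in Pim1-/- PBS and 1.05, 0.852 and 0.788 TPM in Pim1-/- oxLDL. The genotypes overlapped in oxLDL alone. Bcl2 fell by 3.16 in WT and 1.30 in Pim1-/- cells (limma adjusted p = 2.87e-05 and 0.0287), with a difference of 1.86 and a start gap of -1.69 (limma adjusted p = 0.0239). Its fall in Pim1-/- cells did not pass after median scaling (limma adjusted p = 0.0895). Egr2 fell by 1.85 in WT cells (limma adjusted p = 0.00326) and differed by -0.15 in Pim1-/- cells (limma adjusted p = 0.823), for a difference of 1.70. Its start gap of -1.53 passed the test (limma adjusted p = 0.0407).

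**Figure D3:**
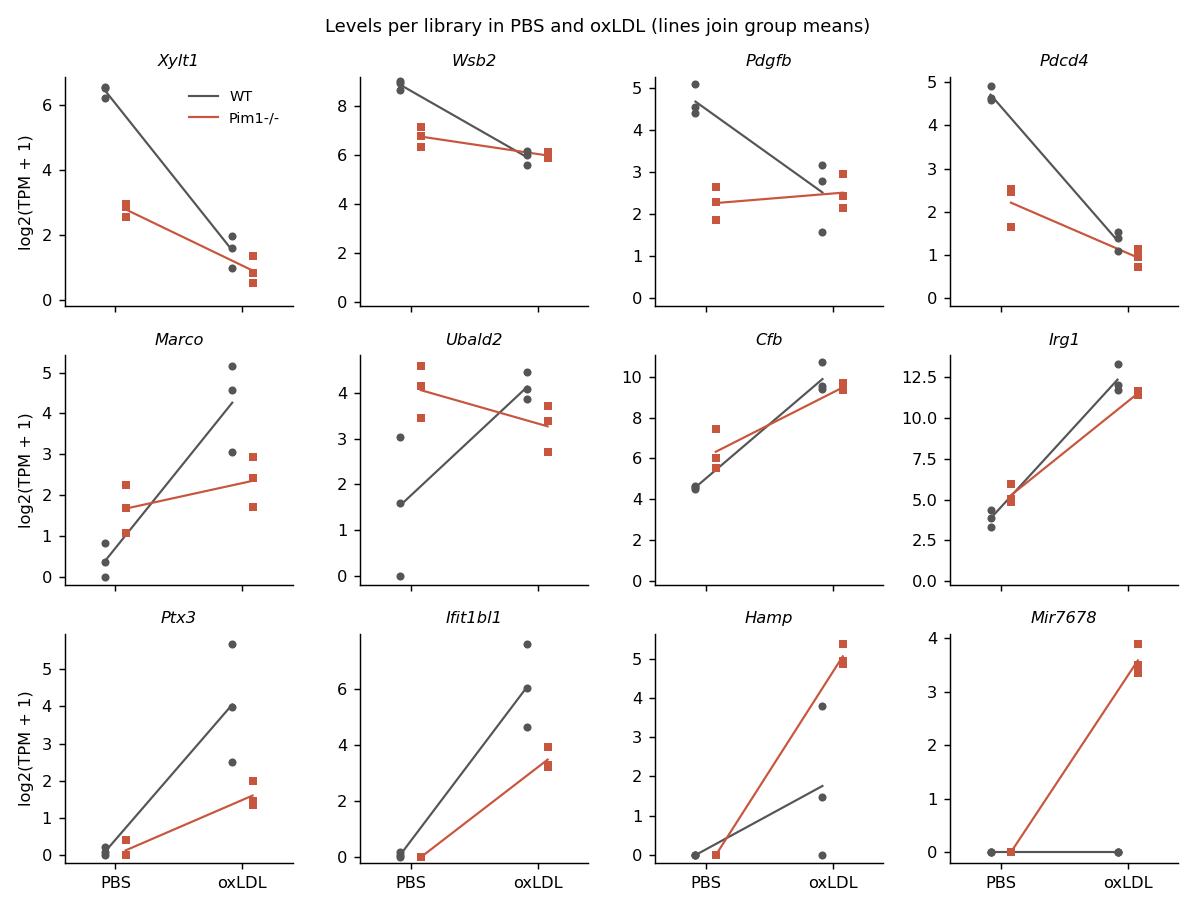
Level of 12 genes in each library as log2(TPM + 1) (y axis), in PBS and oxLDL (x axis), with WT as grey circles and Pim1-/- as red squares, and lines that join the group means. In the top row the genotypes are apart in PBS, with WT above, and lie close together in oxLDL, in the middle row Pim1-/- cells start above WT cells, and in the bottom row the genotypes part in oxLDL.

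The 60 genes with a negative difference and an altered start were higher in Pim1-/- than in WT cells in PBS, as the definition requires, and 20 of them passed the test there (77 of all tested genes, 0.611%, were called higher at the start). In WT cells 26 of the 60 rose with oxLDL (5.83% of all tested genes rose), and in Pim1-/- cells 12 rose (4.45% of all). The choice of the 60 used the same WT PBS libraries, so it favoured a call at the start and a rise in WT cells. The median level of the 60 went from 1.96 to 8.54 TPM in WT cells and from 13.3 to 7.33 TPM in Pim1-/- cells. Transcripts of this group were short, with a median of 1550 bases against 3219 for all tested genes. Of the 60 genes 16 carried microRNA, snoRNA or gene-model names, against 1017 of the 12594 tested genes, and their part in the length was not tested. WT PBS 3 listed several of the genes named below at 0.

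Cfb, the complement protease factor B, was at 23.3, 23.7 and 21.8 TPM in WT PBS, 674, 739 and 1716 TPM in WT oxLDL, 64.4, 171 and 44.9 TPM in Pim1-/- PBS and 652, 669 and 832 TPM in Pim1-/- oxLDL. It was higher in every Pim1-/- PBS library than in any WT PBS library, and the genotypes overlapped in oxLDL. Cfb rose by 5.31 in WT and by 3.16 in Pim1-/- cells (limma adjusted p = 5.24e-06 and 0.000684), for a difference of -2.15.

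Ubald2 stood at 7.17, 2.03 and 0 TPM in WT PBS and at 23.2, 9.92 and 16.8 TPM in Pim1-/- PBS. In oxLDL it was at 21.1, 16.0 and 13.6 TPM in WT and 5.58, 9.40 and 12.1 TPM in Pim1-/- cells. The genotypes did not overlap in either treatment as deposited, but the closest oxLDL values, 13.6 TPM in WT and 12.1 TPM in Pim1-/- cells, nearly met. The end gap of -0.87 did not pass the test (limma adjusted p = 0.706). The difference was -3.39 (SE 0.876, limma adjusted p = 0.986) and -2.62 without WT PBS 3, and the start gap of 2.52 passed the test (limma adjusted p = 0.0368).

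For some further genes of this direction the call depended on single libraries. The C/EBP transcription factor Cebpd (difference -3.57), Srm (-2.74), which makes spermidine, the translation initiation subunit Eif3f (-2.63) and Sac3d1 (-2.81) were each highest in Pim1-/- PBS 3 and lowest, among the Pim1-/- oxLDL libraries, in Pim1-/- oxLDL 3. The differences stayed large in size but missed the threshold on p when a library was left out. They were -3.06 to -2.27 without WT oxLDL 2 (limma unadjusted p of 0.0572 to 0.115), -2.77 to -1.84 without Pim1-/- PBS 3 (0.0611 to 0.152) and -2.64 to -1.47 without Pim1-/- oxLDL 3 (0.0674 to 0.136). Eif3f, for example, went from 440 TPM in Pim1-/- PBS 3 to 9.24 TPM in Pim1-/- oxLDL 3, while Pim1-/- oxLDL 1 held 277 TPM. Mcemp1, a mast cell and myeloid membrane protein, had a difference of -2.55 and of -1.90 without WT PBS 3, where it was listed at 0.

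Genes whose gap lay in oxLDL were fewer, and only Mir7678 passed the test at the end. Of the 10 with a positive difference, 7 rose with oxLDL in Pim1-/- cells (4.45% of all tested genes rose) and 1 in WT cells (5.83% of all). The choice of the 10 used the same Pim1-/- oxLDL libraries, so it favoured a rise in Pim1-/- cells. Hamp had the largest positive difference among the genes named for size. It encodes hepcidin, the hormone that degrades the iron exporter ferroportin, and macrophages are known to make it on inflammatory stimulation. It was listed at 0 in all PBS libraries, at 1.78, 12.9 and 0 TPM in WT oxLDL and at 28.1, 40.3 and 29.6 TPM in Pim1-/- oxLDL. Every Pim1-/- oxLDL library lay above every WT oxLDL library, which naming for size required of a gene at 0 in PBS.

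Hamp rose by 5.05 in Pim1-/- cells (limma adjusted p = 0.000181) and differed by 1.76 in WT cells (limma adjusted p = 0.0578). The difference was 3.30 (SE 0.951, 95% interval 1.26 to 5.33), and it did not pass among all genes (limma adjusted p = 0.986). It was 4.32 without WT oxLDL 2, the WT library with the most Hamp, and passed when WT PBS 3 was left out as well. Its near-identical paralog Hamp2 was listed at 0 to 0.651 TPM, so some of its reads could belong to either gene. Its promoter is shown because it holds a STAT-type motif (TTCNNNGAA) and an AP-1-type motif (TGANTCA) side by side, both marked by capitals. It covers the 250 bases before the start site (chr7:30944030-30944279, minus strand, RefSeq, GRCm38.p6).
Hamp promoter: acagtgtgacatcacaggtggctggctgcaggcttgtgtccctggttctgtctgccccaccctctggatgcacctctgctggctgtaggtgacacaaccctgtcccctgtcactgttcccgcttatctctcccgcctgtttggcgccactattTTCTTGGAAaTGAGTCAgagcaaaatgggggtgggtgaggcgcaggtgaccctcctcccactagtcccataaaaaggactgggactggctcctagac
TTCNNNGAA was found in 8.13% and TGANTCA in 7.82% of the 27025 promoters of the table, searched on both strands, and a match describes the letters only. Shares of motifs among the gene groups are not given, since 74.5% of the tested genes had a promoter in the table.

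Csf2, which encodes the growth factor GM-CSF, also had its gap in oxLDL. It was listed at 0 in PBS, at 0.242, 2.79 and 0.137 TPM in WT oxLDL and at 3.05, 4.72 and 2.72 TPM in Pim1-/- oxLDL. The groups overlapped through WT oxLDL 2, and the difference of 1.33 became 1.89 without that library. Csf2 rose in Pim1-/- cells (2.14, limma adjusted p = 0.00517).

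Of the 20 genes with a negative difference and an altered end, 7 rose with oxLDL in WT cells (5.83% of all tested genes) and 2 in Pim1-/- cells (4.45%). The choice of the 20 used the same WT oxLDL libraries, so it favoured a rise in WT cells. Ifit1bl1, of the family of interferon-induced Ifit proteins, was listed at 0 to 0.144 TPM in PBS, and its oxLDL levels were 64.0, 23.7 and 191 TPM in WT and 8.19, 8.85 and 14.2 TPM in Pim1-/- cells. It rose in both genotypes, by 5.98 and 3.48 (limma adjusted p = 7.34e-06 and 0.00110), without overlap in oxLDL. Since its PBS levels overlapped, naming for size required the lack of overlap in oxLDL. The difference was -2.51 (SE 0.808, limma adjusted p = 0.986) and -3.23 without WT oxLDL 2.

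Ptx3 encodes a soluble pattern recognition protein of the pentraxin family. In PBS it was at most 0.327 TPM, and in oxLDL it stood at 49.9, 4.68 and 14.7 TPM in WT and at 3.01, 1.54 and 1.78 TPM in Pim1-/- cells. The genotypes did not overlap in oxLDL, which naming for size required since they overlapped in PBS. Ptx3 rose by 3.94 in WT cells (limma adjusted p = 0.000340) and differed by 1.47 in Pim1-/- cells (limma adjusted p = 0.124), for a difference of -2.47, or -3.24 without WT oxLDL 2. Anp32b, a histone chaperone, fell by 2.10 in Pim1-/- cells (limma adjusted p = 0.0198) and differed by 0.31 in WT cells (limma adjusted p = 0.683), with oxLDL levels of 133, 54.1 and 97.3 TPM in WT and 49.1, 17.5 and 9.2 TPM in Pim1-/- cells. The fall did not pass after median scaling (limma adjusted p = 0.124).

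A scavenger receptor and a chemoattractant receptor had gaps of opposite sign at both ends. Marco, which binds modified lipoproteins and bacteria, was at 0.755, 0.284 and 0 TPM in WT PBS, 22.8, 7.26 and 34.8 TPM in WT oxLDL, 2.21, 3.73 and 1.10 TPM in Pim1-/- PBS and 6.58, 4.30 and 2.27 TPM in Pim1-/- oxLDL. Pim1-/- cells were above WT cells in PBS and below them in oxLDL, with no overlap in either. Marco rose by 3.87 in WT cells (limma adjusted p = 0.000199) and differed by 0.68 in Pim1-/- cells (limma adjusted p = 0.436), and the difference was -3.19 (SE 0.775, 95% interval -4.85 to -1.53, limma adjusted p = 0.986).

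Fpr1, the receptor for formylated bacterial peptides, stood at 0.263, 0.578 and 0 TPM in WT PBS and 4.62, 3.24 and 1.31 TPM in Pim1-/- PBS. In oxLDL it was at 205, 40.3 and 83.7 TPM in WT and 33.9, 34.4 and 42.6 TPM in Pim1-/- cells, and the genotypes overlapped through WT oxLDL 2. Fpr1 rose by 6.15 and 3.31 in WT and Pim1-/- cells (limma adjusted p = 2.71e-06 and 0.000898), for a difference of -2.84.

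Gene lists were described by the median difference of their tested members beside the 0.23 of all tested genes. Acute-phase proteins and protease inhibitors, secreted proteins that inflammation induces, had the lowest median, -1.10 (-1.38 after median scaling and -0.84 without WT oxLDL 2). Of 17 tested members 14 lay below 0. Members with an unadjusted limma p under 0.05 numbered 4 below 0 (0.873% of all tested genes), among them Ptx3, Cfb and haptoglobin (Hp, -1.01), and 1 above 0 (2.15%), Hamp, and none passed the adjusted test. The start gap was called in 4 members, all higher in Pim1-/- cells (0.611% of all tested genes). They included the serum amyloid gene Saa3 (2.59, limma adjusted p = 0.0390), Orm1 (4.35) and the metalloproteinase inhibitor Timp1 (2.92). The list's median response was 3.77 in WT and 2.11 in Pim1-/- cells, and 13 members rose in WT (5.83% of all tested genes) and 9 in Pim1-/- cells (4.45%).

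Saa3 gives this order in its levels, with 37.6, 49.2 and 104 TPM in WT PBS, 725, 132 and 462 TPM in Pim1-/- PBS, 4617, 3872 and 1159 TPM in WT oxLDL and 4036, 4887 and 4060 TPM in Pim1-/- oxLDL. The genotypes were apart in PBS and overlapped in oxLDL. The mesothelial and fibroblast marker list, whose cells also make several of these proteins, had a median difference of -0.62 (-0.37 without WT PBS 3) and summed to 322 to 716 TPM in WT PBS, 360.4 to 1077 in WT oxLDL, 669.7 to 1947 in Pim1-/- PBS and 497 to 1124 in Pim1-/- oxLDL. Its part in these values was not tested.

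The list of cytokines and chemokines induced by NF-kB, the transcription factor of inflammatory signalling, also held the enzyme gene Irg1, its lowest member. The 29 members of the list had a median difference of -0.32 (-0.37 after median scaling). All but a few rose in both genotypes, 27 in WT (5.83% of all tested genes rose) and 26 in Pim1-/- cells (4.45%), with median responses of 6.26 and 5.43. Irg1, which makes the antimicrobial metabolite itaconate, stood at 13.4, 8.97 and 19.7 TPM in WT PBS, 4067, 3251 and 10131 TPM in WT oxLDL, 31.2, 59.7 and 27.8 TPM in Pim1-/- PBS and 2739, 2654 and 3227 TPM in Pim1-/- oxLDL. The genotypes did not overlap in either treatment as deposited, but in oxLDL WT oxLDL 2 (3251 TPM) and Pim1-/- oxLDL 3 (3227 TPM) nearly met. The end gap of -0.84 did not pass the test (limma adjusted p = 0.590), so a reversed order in oxLDL was not established. The difference of Irg1 was -2.25 (SE 0.675, limma adjusted p = 0.986), and its origin was both as deposited and an altered start after median scaling. Il1b, the cytokine interleukin-1 beta, had a difference of -1.28 against responses of 11.40 and 10.12. NF-kB subunits and feedback inhibitors had a median of -0.07 (-0.43 after median scaling), with the atypical inhibitor Nfkbid at 1.22.

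Interferon-stimulated genes, 38 tested, had a median difference of 0.16, which was -0.17 after median scaling, and no member reached an unadjusted p under 0.05 in either direction. In each genotype 37 of the 38 rose (5.83% of all tested genes in WT and 4.45% in Pim1-/- cells), with median responses of 4.89 in WT and 4.63 in Pim1-/- cells. Inflammasome genes had a median of -0.47, which was -0.03 without WT PBS 3 and -0.80 without WT oxLDL 2, with the noncanonical caspase Casp4 at -1.26 (limma unadjusted p = 0.0300). Casp4 was at 9.07, 6.85 and 6.97 TPM in WT PBS and 22.7, 27.0 and 11.3 TPM in Pim1-/- PBS, apart from each other, and at 152 to 190 TPM in all oxLDL libraries.

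Genes of cholesterol synthesis and other targets of SREBP2, the factor that senses low cholesterol, had a median difference of 0.50 (0.15 after median scaling) over 26 members. Their median response was -2.09 in WT and -1.44 in Pim1-/- cells. Cyp51, an enzyme of the pathway, was at 60.6, 61.5 and 52.2 TPM in WT PBS, 3.03, 4.80 and 11.7 TPM in WT oxLDL, 18.8, 36.6 and 12.5 TPM in Pim1-/- PBS and 4.92, 5.23 and 7.18 TPM in Pim1-/- oxLDL. The genotypes were apart in PBS and overlapped in oxLDL, and Cyp51 fell in both, by 3.14 and 1.69 (limma adjusted p = 0.000355 and 0.0332, the latter 0.0614 after median scaling). The other member with an unadjusted limma p under 0.05 was Hsd17b7, also of the pathway (difference 1.74), and neither was large after median scaling.

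Cytoplasmic ribosomal proteins had the highest median of the pathway lists, 0.95 over 36 members, with 35 above 0 and none past an unadjusted p of 0.05. The value was 0.59 after median scaling, 0.49 without WT PBS 3, 1.63 without WT oxLDL 2 and -0.31 with libraries weighted by their quality, so its sign depended on how the libraries counted. Respiratory chain subunits had a median of 0.37, which was 0.02 after median scaling, -0.20 after quantile normalization, 0.09 without WT PBS 3 and 0.66 without WT oxLDL 2. Mitotic and replication genes had 0.48 (0.18 after median scaling), with 24 of 27 above 0 and none past an unadjusted p of 0.05.

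Lipid-handling lists lay near the median of all genes. PPAR targets and lipid droplet genes had a median difference of 0.31 (-0.05 after median scaling), LXR targets and cholesterol efflux genes -0.00 (-0.37), and scavenger and lipoprotein receptors 0.05 (-0.30), where Marco was the single member of 17 with an unadjusted p under 0.05. Monocyte-derived macrophage markers had a median of 0.25 (0.10, and 0.48 without WT oxLDL 2). Of the 12 tested members 7 lay above 0 and 5 below, the lowest at -1.10. The chemokine receptors Cx3cr1 (1.26) and Ccr2 (1.30) were the 2 above 0 at an unadjusted p under 0.05 (2.15% of all tested genes). Class II antigen presentation genes had -0.19 (-0.52, and -0.46 without WT PBS 3 and -0.00 without WT oxLDL 2), and 2 of 11 were called higher in Pim1-/- cells in PBS (0.611% of all tested genes). Markers of B cells, which express class II genes as well, summed to 5.01 to 37.8 TPM in WT PBS and 7.93 to 13.4 TPM in Pim1-/- PBS.

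The remaining lists held at most 1 member with an unadjusted limma p under 0.05, and none passed the adjusted test. Median differences were 0.35 for the TCA cycle, 0.34 for lysosome and autophagy genes, 0.28 for the BCL2 family, 0.24 for MYC and ribosome biogenesis genes and 0.47 for alternative activation genes, and after median scaling 0.01, -0.02, -0.10, -0.11 and 0.13. They were 0.01 for proteasome subunits, -0.01 for large peritoneal macrophage identity genes, -0.03 for glycolysis, -0.07 for ATF4 targets, -0.17 for NRF2 targets and -0.19 for immediate early factors. These last 6 lists were lower after median scaling, at -0.27 to -0.52, while the median of all genes moved from 0.23 to -0.09. Without WT PBS 3 the median was 0.07 for the TCA cycle, 0.08 for alternative activation genes and -0.25 for proteasome subunits, and without WT oxLDL 2 it was 0.07 for the BCL2 family. In the pathway lists for which no value without these libraries is given, leaving out either one moved the median by less than 0.2.

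**Figure D4:**
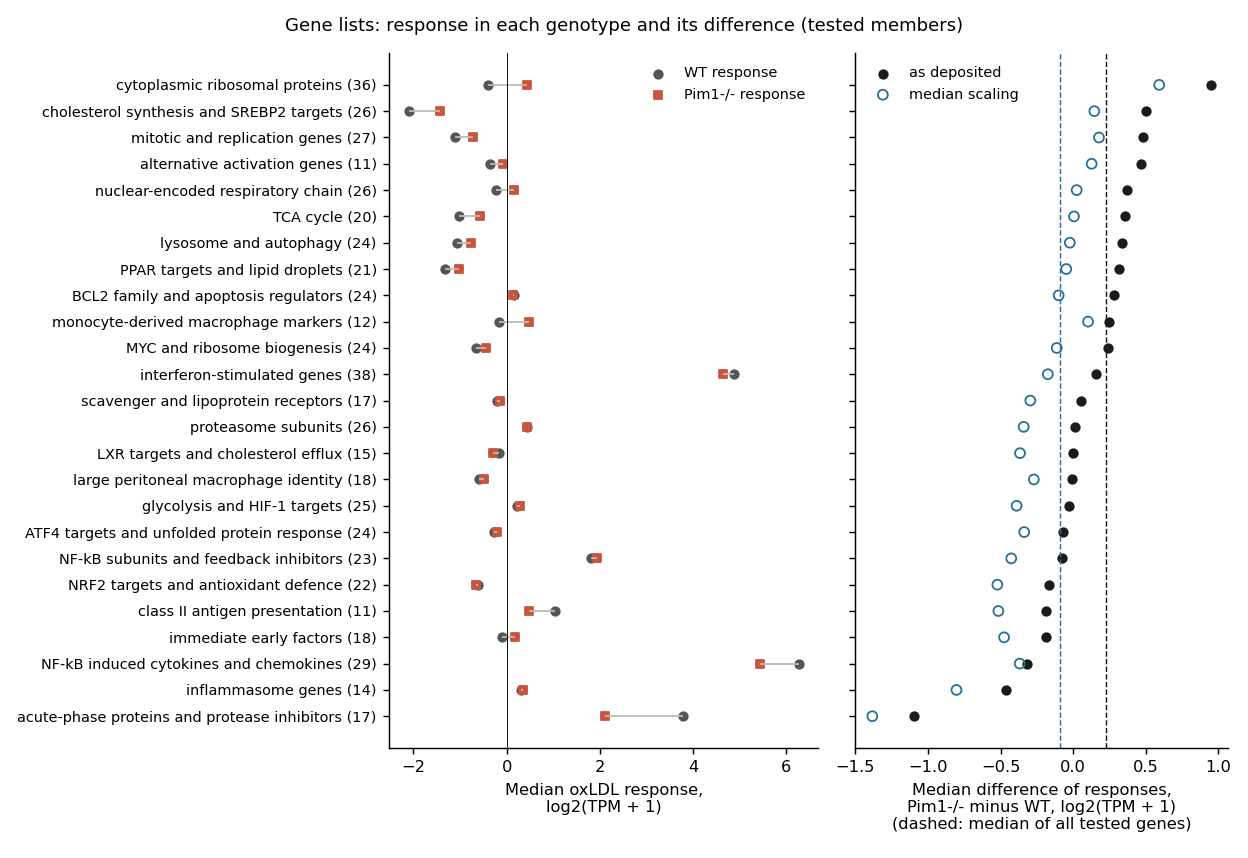
Left, median oxLDL response of each gene list in WT and Pim1-/- cells in log2(TPM + 1), with the number of tested members in brackets. Right, the median difference of the responses, as deposited and after median scaling, with dashed lines at the medians of all tested genes. Acute-phase proteins lie lowest (-1.10) and ribosomal proteins highest among the pathway lists (0.95). In several lists between them the open and filled points lie on opposite sides of 0.

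At the thresholds, Hp (-1.01) and Kif1a (1.03) were just inside the bound on size, Sac3d1 and Htra4 just inside the bound on p, and Wdr33 (1.27) and Ccpg1 (1.52) just outside it. Of the 381 genes 67 carried microRNA, snoRNA or gene-model names and were counted only. By chromosome the share of tested genes with a large difference ran from 1.02% on chromosome 18 to 5.15% on chromosome 10, and was 3.54% on chromosome 17, which carries Pim1.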

How the data were processed

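Libraries were stranded poly(A) mRNA, per the labels. Values are TPM per gene in a single table deposited by the authors with equal column totals. Salmon, DESeq2 and mm10 are named, without versions or roles, per the submitters' processing notes. TPM keeps no depth, so depth per library is unknown and no count model was used. A model of 4 group means was fitted to log2(TPM + 1) with limma 3.58.1 in R 4.3.3 (empirical Bayes, intensity trend, 8 residual degrees of freedom) over 12594 genes. Contrasts were the difference of responses, both genotype gaps and both responses. A call needed p under 0.05 after Benjamini-Hochberg adjustment across all tested genes. The code was tested on simulated data. Names matched GENCODE M21 in 95.7% of cases.

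The comparison, its genes and the lists were chosen with earlier results of these data known. Named genes are the Pim kinases, called genes, up to 12 per direction by size, up to 3 per list and those at the thresholds. Slpi was added after the values had been seen. The labels state no pairing by replicate number, so the main fit had none. A gene named by this rule is not reported here.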

Additional observations from a re-analysis of the deposited data

Results flagged for a closer look

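Mir7678 was noted because the oxLDL effect differed between the genotypes by a test of that difference itself. The difference was 3.59 (SE 0.450, limma adjusted p = 0.0153), with all WT libraries and the Pim1-/- PBS libraries listed at 0 and the 3 Pim1-/- oxLDL libraries between 9.25 and 13.9 TPM. Mir7678 met the filter through these 3 libraries alone, and the values of 0 elsewhere add no spread to the SE. The call was lost in 9 of 12 fits that left out 1 library. Of the 71 bases of the hairpin 70 lie within an intron of Slpi on the same strand, and Slpi was also highest in the Pim1-/- oxLDL libraries. Whether the reads come from the microRNA or from Slpi RNA cannot be told apart in values per gene.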

How the results depend on the processing

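Of 129 named genes, Slpi among them, 126 kept their side of the threshold on adjusted p throughout, which meant that they stayed uncalled. A large difference was picked by its size and p, and Rassf3, Rac1 and Mlycd, for example, were not large after median scaling. None of the 42 with a large difference changed sign under any alternative run. Of the others 16 changed sign. Mir7678 lost its call at a pseudocount of 0.1, under the replicate block and in 9 of 12 fits without 1 library, and Xylt1 and Hamp gained one at a pseudocount of 5 and without both WT PBS 3 and WT oxLDL 2. The number of genes called for the difference was 1 and went to 0 at a pseudocount of 0.1, with a filter on a mean of 5 TPM and under the replicate block, 2 at a pseudocount of 5 and with quality weights, and 5 without both WT libraries. Correlations of same-numbered libraries' deviations from their group means ran from -0.521 to 0.165. They showed no pairing by number, but with so few libraries a group they cannot exclude one. Between differently numbered libraries of different groups the correlations ran from -0.271 to 0.724, the highest for WT oxLDL 3 with Pim1-/- PBS 2. The main fit took libraries as independent, and the source of this likeness was not tested. Under the replicate block the start count was 321.

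Genes called at the start (588) numbered 198 and 963 at pseudocounts of 0.1 and 5, 151 with no filter, 7 after median scaling, 170 without Rn45s and Mir6236, 3688 with quality weights, 1164 without both WT libraries and 271 when these were left out with median scaling, an alternative chosen after seeing the data. Genes called at the end (1) numbered 0 with the stricter filter, 94 with weights, 827 without both WT libraries and 376 with median scaling as well. The WT response (4137) gave 2569 after median scaling, 2658 after quantile normalization, 6562 with weights and 1987 with median scaling and without both WT libraries, and the Pim1-/- response (1542) gave 3922 with weights.

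Altered starts (298) numbered 172 with the stricter filter, 1495 with weights, 194 with median scaling and without both libraries, and 56 at a size of at least 2. Altered ends (30) numbered 57 after quantile normalization, 48 with weights, 125 without both libraries, 171 with median scaling as well, and 19 at a size of at least 2. Genes of both kinds (53) numbered 35 at a pseudocount of 5 and with the stricter filter, 99 after median scaling, 87 after quantile normalization, 136 with weights, 95 without both libraries, 131 with median scaling as well, 23 at a size of at least 2 and 116 with a ratio of 3 between the gaps. The causes were not tested.

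With each library left out in turn, calls ranged from 0 to 3 for the difference, 2 to 1669 for the start, 1 to 317 for the end (317 without WT oxLDL 2), 2591 to 5114 for the WT response and 688 to 2307 for the Pim1-/- response. Altered starts ranged from 162 to 714, altered ends from 13 to 137 and both from 32 to 101. With 3 libraries a group the median SE of the difference was 0.669. Depth is unknown, so the counting error of low TPM values is not given.

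Of these 16, the sign turned after median scaling for Itgax (-0.052), Zbtb46 (-0.011), Pf4 (-0.12) and Xist (-0.041), after quantile normalization for Ms4a1 (0.16), Ccr7 (0.0040) and Pf4 (-0.40), at a pseudocount of 0.1 for Ms4a1 (0.14), without Rn45s and Mir6236 for Pf4 (-0.046) and with quality weights for Psma7 (-0.17), Ms4a1 (0.42), Nkg7 (-0.69), Cd3d (-0.077) and Pf4 (-1.28). Leaving out both WT libraries turned Ms4a1 (0.46), Cd3d (-0.26), Ccr7 (0.018), Pf4 (-0.076) and Slpi (0.046), and doing so with median scaling turned Pim2 (-0.47), Gclc (-0.052), Ms4a1 (0.49), Cd3d (-0.70), Tpsb2 (0.020), Ccr7 (0.10), Itgax (-0.23), Zbtb46 (-0.21), Upk3b (-0.17), Pf4 (-0.54) and Xist (-0.095). With each library left out in turn, the difference ranged from -1.08 to 0.26 for Pim1, from -0.13 to 1.87 for Cd79b, from -0.57 to 0.47 for Ms4a1, from -0.19 to 3.70 for Nkg7, from -0.35 to 1.83 for Cd3d, from -0.090 to 0.86 for Itgax, from -0.19 to 0.90 for Zbtb46, from -0.62 to 0.77 for Pf4, from -0.24 to 0.76 for Xist and from -1.65 to 0.15 for Slpi.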
